A study of Mus musculus with 4 samples.

Results

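The cells described here are the 351 of 16280 marrow cells (2.16%) in which at least 2 of the 4 genes Ms4a2, Mcpt8, Prss34 and Fcer1a had a UMI (unique molecular identifier, 1 per captured mRNA molecule) and in which Car1, Pf4 and Cd79a had none. The cells were labelled basophil and mast progenitor-like before this description. They came from 4 single-cell RNA sequencing libraries of marrow from chimeric mice. The labels number 2 replicates a group, read here as 1 library a mouse, which they do not state. Each library held cells with Y-linked UMIs and cells with Xist UMIs but no Y-linked ones, so 1 donor a library is not established. The comparison was between 2 Idh1-R132H libraries, from donor cells in which a heterozygous Idh1-R132H allele and the EYFP reporter had been recombined, and 2 Idh1-WT libraries, from EYFP-positive cells labelled wild type. Donors of both groups were given tamoxifen on 5 days. Their lineage-negative marrow cells that carried EYFP were sorted 2 weeks afterwards and injected into irradiated mice with no helper marrow, and the marrow of these chimeras was taken 16 weeks after transplantation. For each library, 4000 EYFP-positive cells each of 3 populations went into 1 tube. The populations were all CD45.1-positive cells, LK cells, which lack lineage markers and carry cKit, and LSK cells, which carry Sca1 as well. The share of any cell type is thus set partly by the sort. The Cre driver, age and sex of the animals are not given in the sources used here. IDH1 R132H makes 2-hydroxyglutarate, which inhibits dioxygenases that use 2-oxoglutarate. The series asks, by its title, how the mutation acts on neutrophil formation and on myeloid progenitors.

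Basophils and mast cells are the granulocytes that carry the high-affinity IgE receptor. When antigen crosslinks bound IgE, they release histamine, proteases, lipid mediators and cytokines such as interleukin 4. Both arise in the marrow from progenitors that depend on the transcription factor GATA2, with C/EBPα needed on the way to basophils, and interleukin 3 expands mouse basophils. Fcer1a and Ms4a2 encode the α and β chains of the IgE receptor. Mcpt8 and Prss34 encode serine proteases of mouse basophil granules, while mature connective tissue mast cells carry the chymases Cma1 and Mcpt4 and the tryptases Tpsb2 and Tpsab1. Cpa3, a carboxypeptidase, is shared by both lineages and was given as a marker without being part of the rule.

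The promoters of the 4 selecting genes (the rule genes Ms4a2, Mcpt8, Prss34 and Fcer1a), and of Cpa3 and the basophil receptor gene Cd200r3, are shown because these genes were detected together in the richest cells. Each window runs from 250 bases before to 50 bases after the start of the gene (RefSeq, GRCm38.p6, 5′ to 3′ on the strand of the gene). Capitals mark matches to the GATA-type motifs AGATAA and TGATAA, searched on both strands and chosen after the windows had been looked at.
Ms4a2 promoter (chr19:11623670-11623969, minus strand): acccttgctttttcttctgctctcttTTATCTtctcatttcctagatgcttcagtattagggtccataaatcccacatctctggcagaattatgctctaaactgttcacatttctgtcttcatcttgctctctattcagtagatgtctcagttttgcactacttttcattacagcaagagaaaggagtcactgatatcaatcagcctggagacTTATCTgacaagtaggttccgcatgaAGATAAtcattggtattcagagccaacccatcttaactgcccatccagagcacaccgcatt
Fcer1a promoter (chr1:173227180-173227479, minus strand): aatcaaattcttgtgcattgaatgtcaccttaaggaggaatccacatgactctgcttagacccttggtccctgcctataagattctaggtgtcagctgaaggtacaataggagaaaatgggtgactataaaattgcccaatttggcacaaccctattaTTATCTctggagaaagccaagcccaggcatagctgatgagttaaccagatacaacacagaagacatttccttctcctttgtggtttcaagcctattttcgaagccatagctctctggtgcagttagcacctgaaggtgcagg
Prss34 promoter (chr17:25298144-25298443, plus strand): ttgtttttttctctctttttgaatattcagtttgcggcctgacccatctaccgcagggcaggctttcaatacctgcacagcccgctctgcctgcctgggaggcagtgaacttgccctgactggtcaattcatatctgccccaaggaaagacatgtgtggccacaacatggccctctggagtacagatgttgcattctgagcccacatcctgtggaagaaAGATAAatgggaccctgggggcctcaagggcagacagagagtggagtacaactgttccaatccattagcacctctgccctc
Mcpt8 promoter (chr14:56085148-56085447, minus strand): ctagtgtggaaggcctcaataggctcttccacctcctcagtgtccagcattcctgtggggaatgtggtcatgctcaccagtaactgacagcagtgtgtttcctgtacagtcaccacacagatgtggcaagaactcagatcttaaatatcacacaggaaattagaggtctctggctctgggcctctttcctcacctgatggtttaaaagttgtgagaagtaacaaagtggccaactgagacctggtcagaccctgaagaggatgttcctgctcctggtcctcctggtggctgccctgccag
Cpa3 promoter (chr3:20242132-20242431, minus strand): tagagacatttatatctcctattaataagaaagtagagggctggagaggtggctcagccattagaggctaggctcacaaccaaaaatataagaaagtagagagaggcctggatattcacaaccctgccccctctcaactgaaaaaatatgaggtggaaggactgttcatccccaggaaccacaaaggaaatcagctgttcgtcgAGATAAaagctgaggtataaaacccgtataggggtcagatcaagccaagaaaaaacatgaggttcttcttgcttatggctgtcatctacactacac
Cd200r3 promoter (chr16:44943428-44943727, plus strand): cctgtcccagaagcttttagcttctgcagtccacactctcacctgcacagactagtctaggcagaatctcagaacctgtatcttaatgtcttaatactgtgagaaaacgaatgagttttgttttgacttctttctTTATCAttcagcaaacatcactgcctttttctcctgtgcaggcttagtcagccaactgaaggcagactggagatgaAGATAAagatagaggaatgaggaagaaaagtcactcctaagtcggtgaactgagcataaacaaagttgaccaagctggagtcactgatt
AGATAA occurred in 5 of these 6 windows, with 3 matches at Ms4a2, and in 11.2% of 32851 mouse promoter windows of the same length. TGATAA occurred in 1 of the 6, at Cd200r3, and in 9.05% of all windows. No match to either motif was present in the Mcpt8 window. A match describes letters in the window and is not a measured binding site.

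Members were found in every library. They were 63 of 3842 cells (1.64%, 95% Clopper-Pearson interval 1.26% to 2.09%) in Idh1-R132H 1 and 121 of 4430 cells (2.73%, 2.27% to 3.25%) in Idh1-R132H 2. They were 95 of 4503 cells (2.11%, 1.71% to 2.57%) in Idh1-WT 1 and 72 of 3505 cells (2.05%, 1.61% to 2.58%) in Idh1-WT 2. The Idh1-WT values lay between those of the Idh1-R132H libraries. The group means were 2.19% ± 0.772 in Idh1-R132H and 2.08% ± 0.0392 in Idh1-WT (SD, n = 2 each), and an exact two-sided permutation test over libraries gave p = 1, where the smallest p this design allows is 0.333. Cells with 3 or 4 of the genes were 0.521% and 0.700% of the cells in Idh1-R132H 1 and 2, against 0.555% and 0.542% in Idh1-WT 1 and 2. With every cell thinned to 5000 UMIs, and shallower cells left out, members were 1.13% and 1.56% of cells in Idh1-R132H, against 1.29% and 1.04% in Idh1-WT. Intervals of counts cover counting error only.

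**Figure D1:**
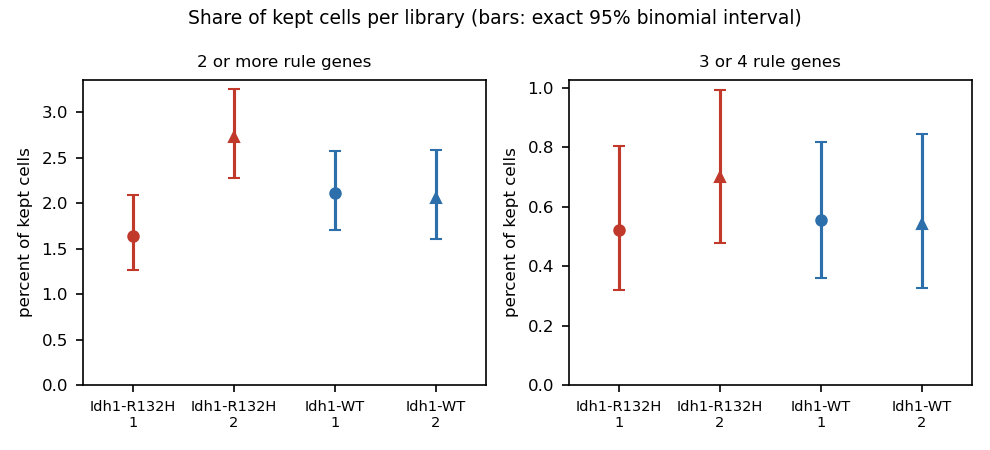
Percent of kept cells per library that carried at least 2 (left) or 3 or 4 (right) of Ms4a2, Mcpt8, Prss34 and Fcer1a, with exact 95% binomial intervals. On the left, Idh1-R132H 1 at 1.64% and Idh1-R132H 2 at 2.73% lie on either side of Idh1-WT at 2.11% and 2.05%.

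The label was checked against markers, which were spread unevenly over the cells. Exactly 2 of the genes were detected in 256 members (72.9%), 3 in 44 and 4 in 51. The pair Mcpt8 and Prss34 alone accounted for 167 members, and 126 members held just 1 UMI of each of 2 genes. Members were chosen on these 4 genes, so their levels are given as a description. In the summed cells with 2 genes, Mcpt8 reached 180 CPM (UMIs scaled to the same total in every sum of cells) and Prss34 40.9 CPM. Free RNA, read from barcodes with at most 50 UMIs, held between 84.3 and 129 CPM of Mcpt8 and between 78.9 and 158 CPM of Prss34 in the 4 libraries. Cells of other types gave the background: 10.1% of 700 B cells carried a Mcpt8 UMI and 1.29% at least 2 of the genes, at a median of 1976 UMIs, against 15878 UMIs in members. In 1531 neutrophils, taken as cells with at least 20 UMIs of Retnlg, the shares were 4.18% and 0.327%, at a median of 2022 UMIs. Among all 3493 cells with at least 20 UMIs of Elane, 177 of them members, 46.4% carried a Mcpt8 UMI and 8.33% at least 2 of the genes, at a median of 21167 UMIs.

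Cells with 2 genes carried granulocyte-monocyte progenitor genes at the highest level of the member classes. Elane, encoding neutrophil elastase, stood at 10087 CPM, Mpo, encoding myeloperoxidase, at 7988 CPM and Prtn3, another primary granule protease, at 4624 CPM in the summed cells with 2 genes. These cells were also deep, at a median of 18056 UMIs, compared with 8106 in cells outside the members. Cd200r3 reached 2.57 CPM in them, and Cpa3 223 CPM. Of the 256 cells, 53 held at least 5 Cpa3 UMIs, so the set was mixed, and it is called cells with 2 genes here.

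At the edge of the rule Cpa3, Gata2 and Hdc were at like levels on both sides, while the neutrophil gene S100a8 was not. The 126 members with 1 UMI of each of 2 genes had 51.3 CPM of Cpa3, 20.4 CPM of Gata2, 96.1 CPM of Hdc, no UMI of Cd200r3, 10629 CPM of Elane and 4663 CPM of S100a8. The 1559 cells just outside, with a single UMI of 1 of the genes, had 48.2 CPM of Cpa3, 19.3 CPM of Gata2, 84.9 CPM of Hdc, 0.138 CPM of Cd200r3, 9280 CPM of Elane and 10782 CPM of S100a8. The other 130 cells with 2 genes, which had 3 or more UMIs of them, stood apart from both: they had 390 CPM of Cpa3, 56.2 CPM of Gata2, 137 CPM of Hdc, 5.07 CPM of Cd200r3 and 305 CPM of Mcpt8, beside 9561 CPM of Elane and 1307 CPM of S100a8. The label was thus not borne out by these markers in the 126 cells, and the 130 carried Cpa3 and Gata2 together with Elane.

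The cells with 3 or 4 genes, 95 in all, carried the given marker Cpa3 and other basophil genes, but were not uniform. Cd200r3 had 445 CPM in cells with 4 genes and 60.2 CPM in cells with 3, Gata2 395 and 147 CPM, and Cpa3 3219 and 1510 CPM. Cells described below on other granule genes were among the 95. At least 5 UMIs of Gzmb were held by 5 cells with 3 genes and 1 with 4, and of Prg2 by 4 and 2. In every library Cpa3 was far above its level in the rest: 2475 and 1885 CPM in cells with 3 or 4 genes of Idh1-R132H 1 and 2, and 3096 and 2078 CPM in those of Idh1-WT 1 and 2, against 377, 176, 213 and 193 CPM in cells with 2 genes. Cells outside the members had between 38.0 and 74.7 CPM. Cd200r3 had 233 and 145 CPM in the cells with 3 or 4 genes of Idh1-R132H 1 and 2, and 315 and 386 CPM in those of Idh1-WT 1 and 2, and at most 0.895 CPM outside the members. Members held 76.7% of all Cd200r3 UMIs in the kept cells, 29.5% of those of Cpa3 and 4.68% of those of Elane.

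**Figure D2:**
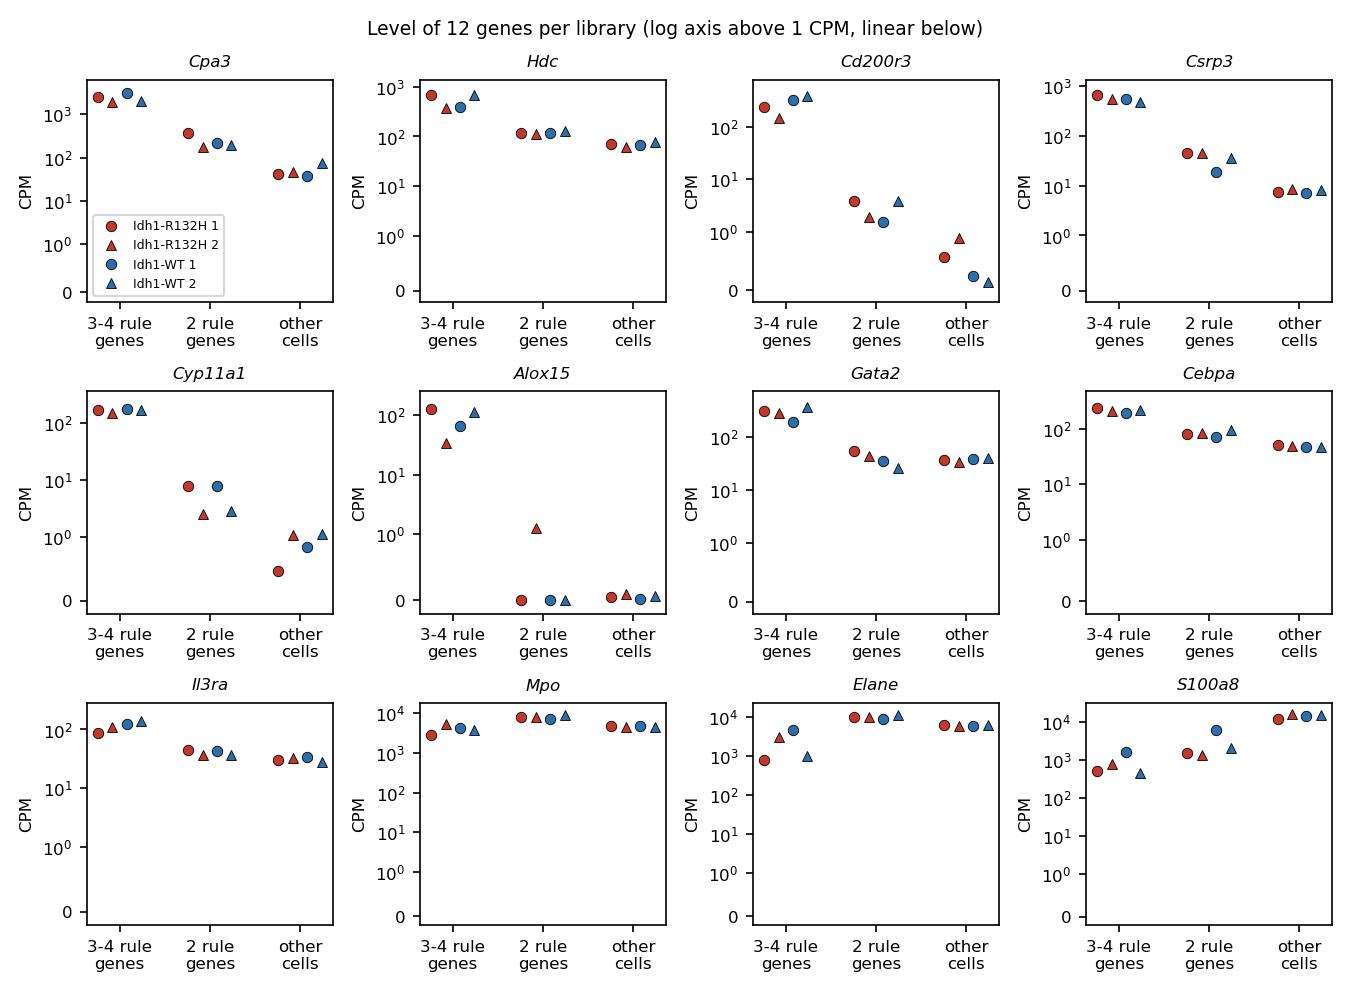
CPM of 12 genes in summed cells with 3 or 4 of the selecting genes, in cells with 2 and in all other cells, 1 point per library (log axis above 1 CPM, linear below). Cpa3, Cd200r3, Csrp3 and Cyp11a1 step down from left to right in every library, while Elane and Mpo are highest in cells with 2 genes.

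The interleukin 3 receptor chains were also high in the cells with 3 or 4 genes, and the IgE receptor γ chain only in those with 4. Fcer1g, the γ chain shared by Fc receptors, had 1504 CPM in cells with 4 genes, but 460 CPM in cells with 3 and 317 CPM in cells with 2, against 471 CPM outside the members. Il3ra, the α chain of the interleukin 3 receptor, had 86.7 and 111 CPM in cells with 3 or 4 genes of Idh1-R132H 1 and 2 and 123 and 141 CPM in those of Idh1-WT 1 and 2, against 27.8 to 33.3 CPM in cells outside the members. Csf2rb, the common β chain, had 65.0 and 65.3 CPM in cells with 3 or 4 genes of Idh1-R132H 1 and 2 and 83.4 and 54.4 CPM in those of Idh1-WT 1 and 2, against 12.6 to 15.9 CPM outside the members. Kit, the receptor of stem cell factor, averaged 63.9 ± 28.7 CPM in cells with 3 or 4 genes and 44.9 ± 3.88 CPM outside the members (SD, n = 4 libraries each). The libraries did not separate by class for Kit, while they did for the interleukin 3 receptor chains.

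Among transcription factors, Gata2 stood at 303 and 278 CPM in cells with 3 or 4 genes of Idh1-R132H 1 and 2 and at 185 and 354 CPM in those of Idh1-WT 1 and 2, against 33.5 to 39.5 CPM outside the members. Cebpa, encoding C/EBPα, averaged 217 ± 19.2 CPM in cells with 3 or 4 genes and 48.7 ± 2.55 CPM outside the members. Runx1 averaged 136 ± 34.7 CPM and 37.4 ± 1.81 CPM, in the same order of classes (SD, n = 4 libraries each). The LIM adaptor gene Lmo4 ranged over the libraries from 478 to 709.5 CPM in cells with 3 or 4 genes and from 58.2 to 69.6 CPM outside the members. Irf8, a factor of monocyte and dendritic cell development, ran the other way, with 3.62 to 14.2 CPM in cells with 3 or 4 genes and 126 to 134.7 CPM outside the members. Mitf, a mast cell factor, was near 0 everywhere, at 3.01 CPM in cells with 3 or 4 genes and 2.07 CPM outside the members.

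Several genes of granules, lipid mediators and cytokines were high in the same cells. Hdc, encoding the enzyme that makes histamine, had 672 and 378 CPM in cells with 3 or 4 genes of Idh1-R132H 1 and 2 and 395 and 685 CPM in those of Idh1-WT 1 and 2, against 62.6 to 77.7 CPM outside the members. Cd63, a granule tetraspanin, averaged 2239 ± 179 CPM and 467 ± 33.6 CPM in the same order of classes (SD, n = 4 libraries each). Alox15, a lipoxygenase, had 31 positive cells among the 95, and its level was 74.2 CPM in cells with 3 or 4 genes and 0.0541 CPM outside the members. Alox5, the first enzyme of leukotriene synthesis, had 137 ± 25.3 CPM in cells with 3 or 4 genes and 7.63 ± 1.34 CPM outside. Other lipid mediator genes were divided. Alox5ap had 973 CPM in cells with 4 genes, 492 CPM with 3 and 423 CPM over all members, and Pla2g4a 26.1, 30.1 and 21.7 CPM. Lta4h ran lower, at 102, 163 and 213 CPM in the same order, as did Ptgs1, at 2.01, 14.1 and 14.8 CPM. Cyp11a1, the side-chain cleavage enzyme of steroid synthesis, had 168, 150, 178 and 169 CPM in cells with 3 or 4 genes of Idh1-R132H 1 and 2 and Idh1-WT 1 and 2, a narrow range, against at most 1.13 CPM outside. Csrp3, a muscle LIM protein, averaged 550 ± 75.1 CPM in cells with 3 or 4 genes and 7.77 ± 0.603 CPM outside the members. The chemokine gene Ccl3 averaged 519 ± 221 CPM and 11.0 ± 1.36 CPM, and Il4 46.0 ± 20.8 CPM and 1.07 ± 0.522 CPM, in the same order of classes. Il13 had no UMI in the cells with 3 or 4 genes.

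Over all 11834 genes tested between the 95 cells and the cells outside the members, edgeR called 1073 (9.07%), 470 higher (3.97%) and 603 lower (5.1%), at a false discovery rate of 0.05. The cells had been chosen in this same contrast, so these counts are a description and carry no weight as tests. Of 21 measured basophil genes outside the rule, 19 were called higher and none lower, with a median log2 difference of 3.10, against -0.14 for all genes tested. Of 11 cytokine and chemokine genes 8 were called higher. Of 18 cytokine receptor genes 7 were called higher, namely Il3ra, Csf2rb, Csf2rb2, Il1rl1, Crlf2, Il18r1 and Il18rap, and 6 lower, among them Flt3, Csf1r and Csf3r. Of 12 neutrophil genes, among them S100a8, S100a9 and Ngp, 11 were called lower, with a median log2 difference of -4.09. Of 13 stem and multipotent progenitor genes 8 were called lower, among them Hlf, Meis1 and Cd34, and of 19 interferon response genes 6, among them Isg15 and Ifit1. Of 13 immediate early genes 7 were called higher, among them Fos, Jun and Junb, and of 18 G2 and M phase genes 4, namely Top2a, Ube2c, Plk1 and Nusap1. Immediate early genes can move with tissue handling and with activation, and their part in the other differences was not tested. All 351 members set against the cells outside gave 2120 of 12050 genes (17.6%), 950 higher (7.88%) and 1170 lower (9.71%), with 3312 (27.5%) at an unadjusted p under 0.05.

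The cells with 3 or 4 genes were also set against 1463 cells that carried Gata2 and none of the 7 genes of the rule. Of 8074 genes 1333 were called (16.5%), 706 were called higher (8.74%) and 627 lower (7.77%), again in a contrast the rule had used. Hdc, at the levels above in cells with 3 or 4 genes, had 20.8 to 30.03 CPM in the Gata2 cells. Csrp3 averaged 550 ± 75.1 CPM in cells with 3 or 4 genes and 3.54 ± 2.43 CPM in the Gata2 cells (SD, n = 4 libraries each). Stem cell genes ran lower: Hlf, a transcription factor of stem cells, had 8.92 ± 2.57 CPM in cells with 3 or 4 genes and 86.4 ± 7.63 CPM in the Gata2 cells. All 12 stem and multipotent progenitor genes tested were called lower and all 19 basophil genes outside the rule were called higher. Setting all 351 members against the same cells gave 3517 of 9010 genes (39%), 1768 higher (19.6%) and 1749 lower (19.4%), with 4220 (46.8%) at an unadjusted p under 0.05 and all 10 granulocyte-monocyte progenitor genes called higher.

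The gene lists shifted together with the number of selecting genes detected. Basophil genes outside the rule summed to 655 CPM in cells with 1 gene, 726 CPM with 2, 2970 CPM with 3 and 5154 CPM with 4, and to 788 CPM in all cells outside the members. Shared granule genes summed to 8194, 8627, 10717 and 14244 CPM in the same order, and granulocyte-monocyte progenitor genes to 27892, 29481, 14922 and 12288 CPM. The cells with 4 genes were shallower than those with 2, and the median depth was 15099, 18056, 9497 and 8684 UMIs in cells with 1, 2, 3 and 4 genes. The part of depth in the steps was not tested. The steps between cells with 2 and with 4 genes were present in every library for the basophil and granulocyte-monocyte progenitor lists.

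**Figure D3:**
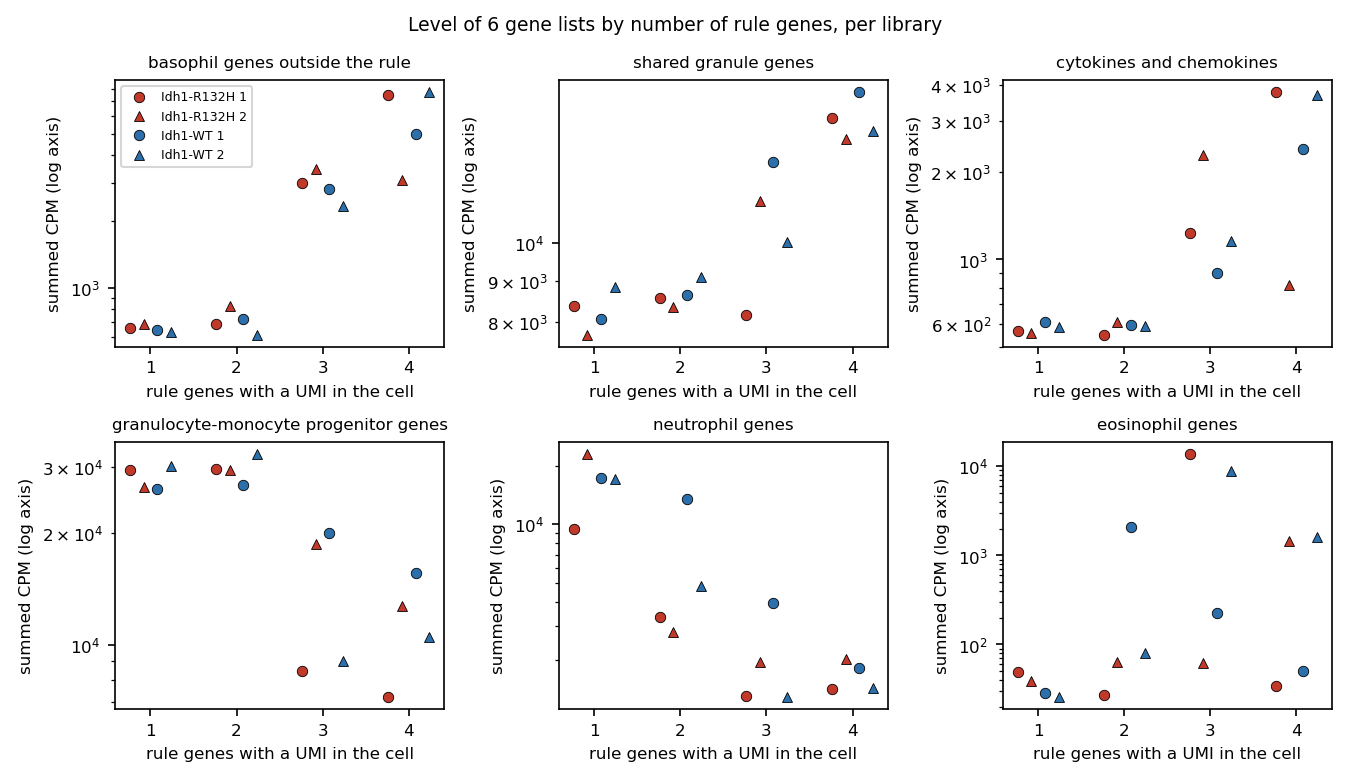
Summed CPM of 6 gene lists against the number of selecting genes with a UMI, 1 point per library (log scale on the vertical axis). Basophil genes stay between 613 and 823.5 CPM in cells with 1 or 2 genes and exceed 2000 CPM in those with 3 or 4.

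Within the cells with 4 genes a group of 21 cells stood apart, in which the 4 selecting genes made up between 8.11% and 19.5% of all UMIs. The next cell had 4.42%, and the limit of 5% was set after the values were seen. These cells numbered 6 and 3 in Idh1-R132H 1 and 2 and 6 and 6 in Idh1-WT 1 and 2. Prss34 alone reached 84299 and 89238 CPM in those of Idh1-R132H 1 and 2, and 85207 and 87661 CPM in those of Idh1-WT 1 and 2. Kit had a UMI in 1 of the 21 cells and the progenitor marker Cd34 in 1, whereas of the other 30 cells with 4 genes 8 carried Kit and 17 Cd34. The 21 cells were the shallower set, with a median of 6179 UMIs against 12038.5, and the part of depth in these counts was not tested. By level, Kit stood at 6.18 CPM in the 21 cells and 65.3 CPM in the 30, and Cd34 at 6.18 CPM and 125 CPM. Cd200r3 stood at 1069 CPM in the 21 cells and 145 CPM in the 30, Alox15 at 260 CPM and 62.3 CPM, and Itgb7, an integrin chain, at 253 CPM and 50.5 CPM. Csrp3 was as high outside the 21 cells, at 637 CPM in them and 665 CPM in the 30. Elane and Mpo were at 550 and 1699 CPM in the 21 cells, and at 2185 and 4877 CPM in the 30. G2 and M phase genes were present in both sets, at 3547 CPM in the 21 cells and 2826 CPM in the 30. A cell with many Prss34 UMIs also carried Cpa3 and Cd200r3 in most cases: of 36 members with at least 20 UMIs of Prss34, 34 had at least 20 of Mcpt8, 30 at least 5 of Cpa3 and 30 a Cd200r3 UMI, and 1 had at least 20 of Elane.

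Mast cell genes were found in few members. Mcpt4 and Tpsab1 had no UMI in any member, and Cma1 and Tpsb2 had none in the cells with 4 genes. At least 5 UMIs of Cma1 and Tpsb2 together, or of Gzmb, a granzyme that mouse mast cells can carry, occurred in 11 members, 2 and 4 in Idh1-R132H 1 and 2 and 4 and 1 in Idh1-WT 1 and 2. Of the 11, 4 passed on Cma1 and Tpsb2 and 9 on Gzmb, with 2 on both. Each of the 11 carried Cpa3, between 7 and 101 UMIs, at 10681 CPM overall. Each also carried Fcer1a, and none had more than 1 UMI of Prss34. The basophil protease gene Mcpt8 stood at 1970 CPM in them, with up to 30 UMIs in a cell. It had a UMI in 2 and 3 of these cells in Idh1-R132H 1 and 2, and in 3 and 0 in Idh1-WT 1 and 2. Their summed levels of Kit, Gata2 and Elane were 712, 522 and 546 CPM, at a median of 4229 UMIs. UMIs of the mast list made up 2.77% and 2.59% of the UMIs of the mast and basophil lists together in members of Idh1-R132H 1 and 2, against 4.59% and 3.46% in those of Idh1-WT 1 and 2. The difference of -1.34 percentage points gave p = 0.333 in the exact two-sided permutation test, the smallest p possible. The order of the libraries did not hold: at a UMI minimum of 1000 the shares were 2.77% and 1.69% in Idh1-R132H 1 and 2, against 4.59% and 1.41% in Idh1-WT 1 and 2, where Idh1-WT 2, with 71 of its 72 members left, had 21 mast list UMIs in place of 53. In Xist-carrying members without Y-linked UMIs the difference was -0.0588 points, and without Idh1-WT 1 it was -0.779 points. The lists rest on few cells: all 71 Cma1 UMIs of the Idh1-WT members came from 4 cells and all 12 of the Idh1-R132H members from 3.

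Another 10 members carried eosinophil granule genes, 2 and 2 in Idh1-R132H 1 and 2 and 3 and 3 in Idh1-WT 1 and 2. They held at least 5 UMIs of Prg2, encoding eosinophil major basic protein, which reached 30582 CPM in them, and each carried between 10 and 75 UMIs of Prg3. Cebpe, a factor of late granulocyte development, was present in each at 957 CPM overall. Mpo reached 7498 CPM and Elane 2920 CPM in these cells. Cma1, Tpsb2 and Gzmb had no UMI in them, and none of these cells was among the 11 chosen on Cma1, Tpsb2 or Gzmb. The 5 richest cells of each genotype held 99.5% of the Prg2 UMIs of its members.

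**Figure D4:**
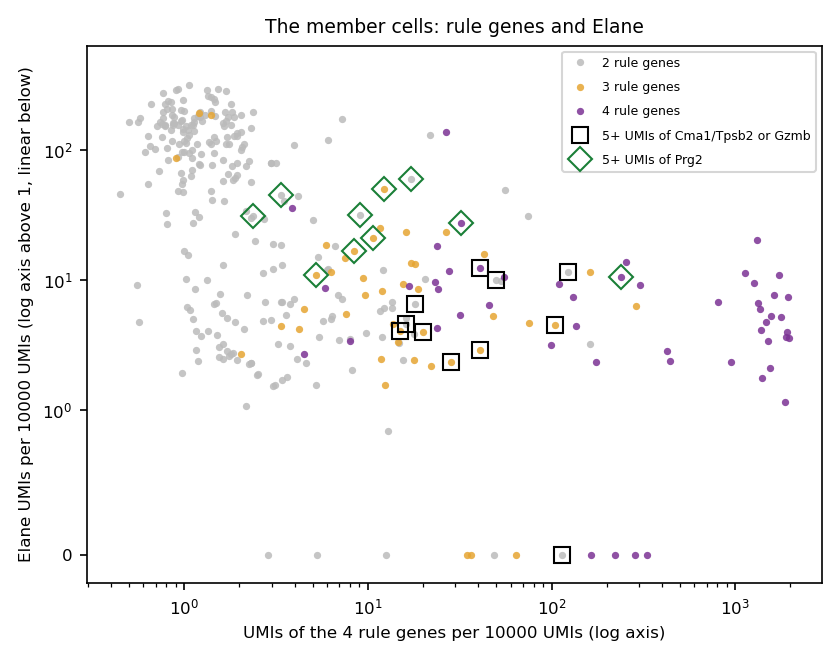
Each point is 1 of the 351 members, with UMIs of the 4 selecting genes (log axis) and of Elane (log axis above 1, linear below) per 10000 UMIs. Cells with 2 genes lie mostly at the upper left. The 21 cells with at least 5% of their UMIs from the selecting genes form the group at the right. Squares mark the 11 cells chosen on Cma1, Tpsb2 or Gzmb, and diamonds mark the 10 cells with eosinophil granule genes.

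Kit was examined in members because LK and LSK cells were sorted on its protein. With members thinned to 2000 UMIs, 13.3% and 5.08% of those of Idh1-R132H 1 and 2 carried a Kit UMI, against 8.60% and 8.45% in Idh1-WT 1 and 2. Without thinning the shares were 46.0% and 43.8% in Idh1-R132H, against 44.2% and 37.5% in Idh1-WT. The thinned means were 9.21% ± 5.83 in Idh1-R132H and 8.53% ± 0.107 in Idh1-WT (SD, n = 2 each), with p = 1 in the exact two-sided permutation test.

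The genotypes were compared on UMI counts summed over the members of each library. Of 7527 genes tested with edgeR, 5 (0.0664%) passed a false discovery rate of 0.05, 3 higher (0.0399%) and 2 lower (0.0266%) in Idh1-R132H members, and 423 (5.62%) had an unadjusted p under 0.05. Ltf, encoding the secondary granule protein lactoferrin, had 48.0 and 32.7 CPM in Idh1-R132H 1 and 2 and 123 and 125 CPM in Idh1-WT 1 and 2. The groups did not overlap, as was the case for 34.6% of the genes tested, and the log2 difference was -1.67 (SE 0.17, edgeR adjusted p = 1.04e-08). Rgcc, a regulator of the cell cycle, had 195 and 202 CPM in Idh1-R132H 1 and 2 and 313 and 331 CPM in Idh1-WT 1 and 2. It fell by 0.67 on the log2 scale in Idh1-R132H members (SE 0.10, edgeR adjusted p = 0.000164).

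The 3 genes that rose in Idh1-R132H members were Xlr, Hist1h2ap and Gm11808. Xlr, on the X chromosome, had 18.8 and 17.1 CPM in Idh1-R132H 1 and 2 and 4.48 and 0 CPM in Idh1-WT 1 and 2, from 58 UMIs in all (adjusted p = 0.018 in edgeR). Hist1h2ap, a replication-dependent histone H2A gene, had 3194 and 3331 CPM in Idh1-R132H 1 and 2 and 2818 and 2415 CPM in Idh1-WT 1 and 2, a log2 difference of 0.34 (SE 0.07, adjusted p = 0.0204 in edgeR). Gm11808 had 97.0 and 108 CPM in Idh1-R132H 1 and 2 and 55.7 and 70.7 CPM in Idh1-WT 1 and 2, a log2 difference of 0.75 (SE 0.16, adjusted p = 0.0424 in edgeR). Xlr and Hist1h2ap belong to families of near-identical genes, so their counts are uncertain.

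**Figure D5:**
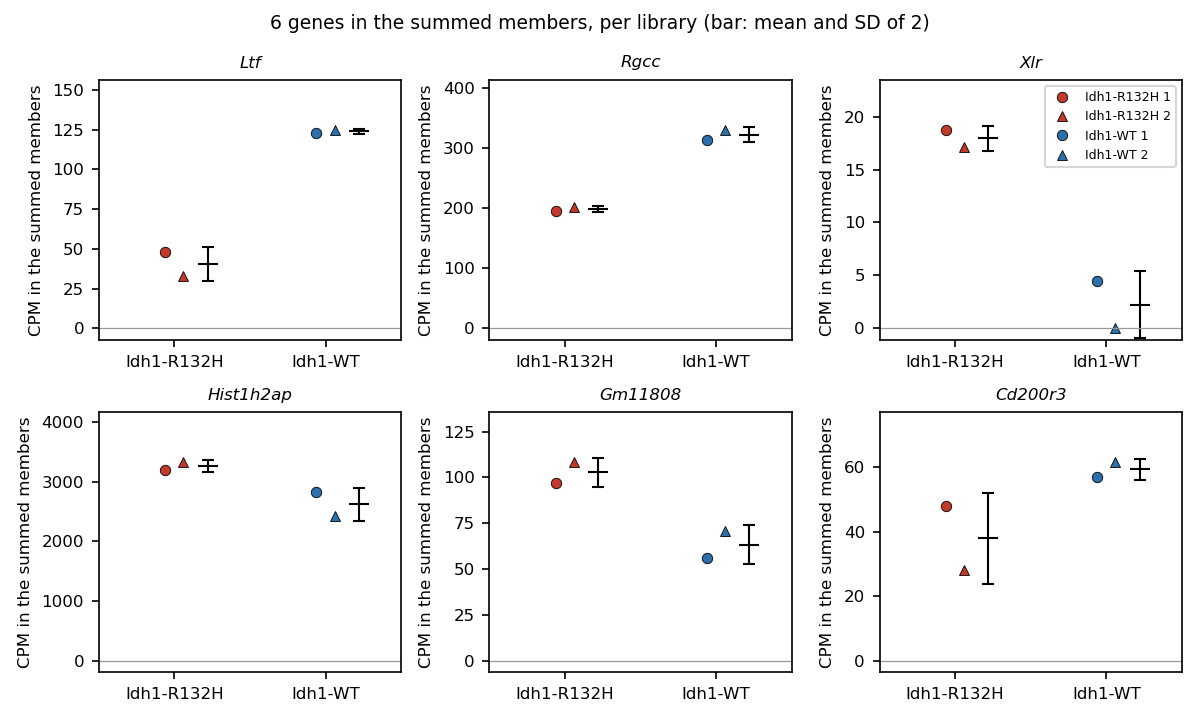
CPM in the summed members of each library for the 5 genes that passed the genotype test and for Cd200r3, which did not, with mean and SD of the 2 libraries of a group. The groups do not overlap for any of the 6 genes, nor for 34.6% of all genes tested, and Ltf shows the widest relative gap among the genes detected in every library.

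Other measures moved with these differences. Few cells held much of Ltf: the 5 richest Idh1-R132H members had 41.3% of its 109 UMIs there, and the 5 richest Idh1-WT members 77.0% of 344. The whole neutrophil list summed to 2976 and 2646 CPM in members of Idh1-R132H 1 and 2 and to 11642 and 4289 CPM in members of Idh1-WT 1 and 2, and of its 11 tested genes 9 were lower, with a median log2 difference of -1.44 against 0.00 for all genes. Lcn2 and Pglyrp1, also granule proteins of neutrophils, had small p values too and did not pass (log2 differences -1.26 and -0.50, adjusted p = 0.0586 and 0.0672 in edgeR). In cells with 3 or 4 genes, Ltf had 5.42 and 22.7 CPM in Idh1-R132H 1 and 2 and 29.0 and 21.8 CPM in Idh1-WT 1 and 2. Rgcc had 92.1 and 148 CPM in such cells of Idh1-R132H 1 and 2, and 217 and 120 CPM in those of Idh1-WT 1 and 2. Hist1h2ap had 3494 and 3979 CPM against 3737 and 3759 CPM, in the same order of libraries. The groups thus overlapped for these 3 genes. They did not for Gm11808, at 92.1 and 133 CPM against 58.0 and 81.6 CPM. Members with a UMI of a Y-linked gene were 33.3% and 39.7% in Idh1-R132H 1 and 2 and 5.26% and 25.0% in Idh1-WT 1 and 2. Members with Xist and no Y-linked UMI were 47.6% and 39.7% in Idh1-R132H 1 and 2 and 80.0% and 58.3% in Idh1-WT 1 and 2. Every library thus held both kinds, and whether it mixed donors of both sexes was not tested. Ddx3y, which is Y-linked, was also short of the threshold (log2 difference 2.38, adjusted p = 0.0586 in edgeR). In members that carried Xist and no Y-linked UMI, edgeR called 5 genes, with Rgcc among them (adjusted p = 0.000967) and Ltf not (adjusted p = 0.979). Barcodes were also shared between libraries: 443 kept barcodes occurred in 2 or more, and 20 of them were members in 1 library, with no barcode a member in 2. Leaving them out kept 3459 of 3842 cells of Idh1-R132H 1 and 4353 of 4430 of Idh1-R132H 2, and 4124 of 4503 of Idh1-WT 1 and 3450 of 3505 of Idh1-WT 2. Members left were 49 of 63 and 119 of 121 in Idh1-R132H 1 and 2, and 92 of 95 and 71 of 72 in Idh1-WT 1 and 2. Idh1-R132H 1 thus lost the most members. Among all kept cells the shared barcodes fell mainly in Idh1-R132H 1 and Idh1-WT 1, so they lay across the genotypes. Without those barcodes edgeR called 0 genes, with 292 at an unadjusted p under 0.05. Members among the top 5% of Scrublet doublet scores were 4 of 63 and 6 of 121 in Idh1-R132H 1 and 2, and 15 of 95 and 4 of 72 in Idh1-WT 1 and 2. Free RNA was put at 14.4% and 8.96% of member UMIs in Idh1-R132H 1 and 2, and at 39.1% and 16.1% in Idh1-WT 1 and 2. The part of neutrophil RNA, free RNA, doublets, sex or shared barcodes in the 5 calls was not tested further.

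Over all genes tested 0.0664% were called between genotypes, a share at which short lists hold few calls or none. No gene among the 17 tested basophil genes outside the rule, the 18 transcription factors or the 11 cytokine receptors was called in either direction, with median log2 differences of 0.00, 0.04 and 0.00. Gata2 had 102 and 85.6 CPM in Idh1-R132H 1 and 2 and 61.5 and 74.9 CPM in Idh1-WT 1 and 2 (log2 difference 0.47, SE 0.16, adjusted p = 0.642 in edgeR). Idh1 itself had 93.9 and 71.6 CPM in Idh1-R132H 1 and 2 and 75.6 and 101 CPM in Idh1-WT 1 and 2, a count that does not distinguish the alleles. Ifitm1 had 441 and 462 CPM in Idh1-R132H 1 and 2 and 345 and 340 CPM in Idh1-WT 1 and 2 and did not pass (log2 difference 0.42, adjusted p = 0.0586 in edgeR). The transcript Gt(ROSA)26Sor had 28.2 and 24.4 CPM in Idh1-R132H 1 and 2 and 8.33 and 11.5 CPM in Idh1-WT 1 and 2, also short of the threshold (adjusted p = 0.0586 in edgeR), and in cells outside the members it had 22.4 and 20.2 CPM in Idh1-R132H against 7.72 and 8.26 CPM in Idh1-WT. Nfkbiz, a regulator of nuclear factor κB, had 8 UMIs in Idh1-R132H members and 38 in Idh1-WT members and did not pass (adjusted p = 0.069 in edgeR).

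Restricting the comparison to the 95 cells with 3 or 4 genes left 2900 genes to test and 0 called (0%) by edgeR, with 110 (3.79%) at an unadjusted p under 0.05; DESeq2 called 0 as well, with 5 at an unadjusted p under 0.05. The smallest p values in this set were those of Lilrb4a and Cd200r3. Lilrb4a, an inhibitory receptor, had 54.2 and 28.4 CPM in Idh1-R132H 1 and 2 and 105 and 109 CPM in Idh1-WT 1 and 2 (log2 difference -1.49, SE 0.37, adjusted p = 0.996 in edgeR). Cd200r3, with the levels given above, had a log2 difference of -0.93 (SE 0.24, adjusted p = 0.996 in edgeR). The cells with at least 5% of UMIs from the selecting genes, which carried most Cd200r3, were 3 of the 31 in Idh1-R132H 2 and 6 of 20, 25 and 19 in Idh1-R132H 1, Idh1-WT 1 and Idh1-WT 2, and within them Cd200r3 had 992 and 794 CPM in Idh1-R132H 1 and 2 and 1230 and 1152 CPM in Idh1-WT 1 and 2. Mcpt8, a gene of the rule and so a description, had 9955 and 8538 CPM in Idh1-R132H 1 and 2 and 13868 and 12380 CPM in Idh1-WT 1 and 2.

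The genotype effect in members was set against that in all other cells. Of 12050 genes 3 (0.0249%) had an effect that differed by edgeR's test of the genotype by class term, all 3 of them with the lower difference in members, and 409 (3.39%) had an unadjusted p under 0.05. Ltf had 48.0 and 32.7 CPM in Idh1-R132H members and 123 and 125 CPM in Idh1-WT members, while other cells had 360 and 561 CPM in Idh1-R132H and 460 and 507 CPM in Idh1-WT (difference of effects -1.66 on the log2 scale, SE 0.16, adjusted p = 7.31e-18 in edgeR). Rgcc had 187 and 167 CPM in other cells of Idh1-R132H and 173 and 209 CPM in those of Idh1-WT (difference of effects -0.56, SE 0.12, adjusted p = 0.00631 in edgeR). Cd200r3 had 48.0 and 28.0 CPM in Idh1-R132H members and 57.0 and 61.7 CPM in Idh1-WT members. In other cells it rested on 23 and 40 UMIs in Idh1-R132H and 12 and 5 UMIs in Idh1-WT (difference of effects -2.50, SE 0.52, adjusted p = 0.00631 in edgeR). The other cells included the 211 cells that met the rule but for a UMI of Car1, Pf4 or Cd79a. These 211 cells carried Cd200r3 as well, and 1 of the other cells held at least 20 Cd200r3 UMIs. The part of such cells in the Cd200r3 difference was not tested. DESeq2 called 0 genes for this term, with 68 at an unadjusted p under 0.05. Without Idh1-R132H 2 the Ltf difference was -0.95 (adjusted p = 0.0201 in edgeR). Without Idh1-R132H 2 the Cd200r3 difference was -1.74 and without Idh1-WT 2 it was -2.20, neither of which passed in edgeR, and Rgcc did not pass without Idh1-R132H 1 or without Idh1-WT 1.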

How the data were processed

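Marrow cells of chimeric mice were measured as 4 libraries (10x 3′ v2). The values used are UMI counts as the authors deposited them, whole numbers for each barcode before any selection of cells. Per the submitters' processing notes, the tools were Cell Ranger 4.0.0 and Seurat, and the build was GRCm38/mm10. Library totals ran from 40364701 to 56353466 UMIs. Cells were barcodes that reached 500 UMIs and 200 genes with mitochondrial UMIs of 10% or less, and doublets were not removed (removal of the top 5% of Scrublet scores, from scanpy 1.11.5, was an alternative). Members and gene lists were chosen with earlier results of these data known. Counts were summed per library and tested with edgeR 4.0.16 (quasi-likelihood, TMM, robust, filterByExpr, Benjamini-Hochberg FDR 0.05), and with DESeq2 1.42.0 as an alternative; library was a block between classes. Replicates are numbered in the labels and were read as separate mice, which the sample titles do not state. Whether each library held cells of 1 donor was not tested. Single values were compared by exact permutation over libraries.

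Genes were named by a fixed rule: the 7 genes of the cell rule and Cpa3, the leading members of each list by CPM, up to 15 called genes in each direction between genotypes (with the 5 smallest p in each direction where fewer than 10 were called), up to 20 rises and 10 falls between classes, and a set of fixed genes. The group of 21 cells, the comparison of genotypes in cells with 3 or 4 genes, the removal of shared barcodes and the thinning to 5000 UMIs were added after the data were seen. Free RNA was read from barcodes with at most 50 UMIs and, in an alternative, subtracted from the sums (14.4% and 8.96% of member UMIs in Idh1-R132H 1 and 2, 39.1% and 16.1% in Idh1-WT 1 and 2).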

Additional observations from a re-analysis of the deposited data

Results flagged for a closer look

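For 3 genes the genotype effect in members differed from that in all other cells by edgeR's genotype by class term. The difference of effects was -1.66 for Ltf, -0.56 for Rgcc and -2.50 for Cd200r3 on the log2 scale. For Ltf and Rgcc the Idh1-R132H members were lower than the Idh1-WT members, while the other cells of the genotypes overlapped. For Cd200r3 the Idh1-R132H members were lower, and the other cells of Idh1-R132H held more UMIs, 23 and 40, than those of Idh1-WT, 12 and 5. Those other cells included the 211 cells left out of the members by Car1, Pf4 or Cd79a, which carried Cd200r3 as well. The levels behind them and the libraries that decide them are given above. DESeq2 called none of the 3.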

How the results depend on the processing

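Between genotypes in members, RLE factors, library totals, UMI minimums of 300 and 1000, Xist-carrying members and subtraction of free RNA kept the count of called genes within 4 to 5. DESeq2 and a mitochondrial limit of 5% gave 3, removal of top Scrublet scores 8, no filter 21, and 0 came from at least 3 of the 4 rule genes (110 at an unadjusted p under 0.05), at least 4 UMIs of the rule genes (269) and removal of shared barcodes (292). Leaving out each library gave 6 to 30. Ltf stayed called under 13 of 16 alternatives (log2 difference -2.20 to -0.46), Rgcc under 15 of 18 (-0.89 to -0.47), Xlr under 10 of 16, Hist1h2ap under 9 of 18 and Gm11808 under 8 of 18, with no change of sign. The log2 differences ran from 1.98 to 7.61 for Xlr, from 0.0053 to 0.489 for Hist1h2ap and from 0.579 to 0.915 for Gm11808. The lowest value for Hist1h2ap was that in cells with 3 or 4 rule genes. A replicate block gave 29 genes in members and 1 in cells with 3 or 4 rule genes. The labels do not state that same-numbered libraries are pairs. The correlation of same-numbered deviations was 0.0395, which cannot decide this with 2 libraries a group. In the cells with 3 or 4 rule genes, leaving out each library gave 2 to 11 calls. The genotype by class term gave 0 with DESeq2 and 5 to 12 with each library left out. Members against other cells gave 1190 genes with DESeq2, 1287 to 1728 with each library left out and 1073 with at least 3 of the 4 rule genes. Members against Gata2 progenitors gave 1895 with DESeq2, 2884 to 3153 with each library left out and 1333 with at least 3 of the 4 rule genes. With library totals in place of TMM, members against other cells split into 630 higher and 1360 lower (950 and 1170 with TMM), and members against Gata2 progenitors into 1125 higher and 2522 lower (1768 and 1749 with TMM). The mast share difference ran from -1.91 to -0.779 points with each library left out and was -0.767 at a UMI minimum of 1000 and -0.0588 in Xist-carrying members (p = 1 in the exact permutation test for both). The difference in the share of members turned to -0.00337 percentage points at a UMI minimum of 1000, -0.321 in Xist-carrying cells and -0.0692 without shared barcodes, and ran from -0.442 to 0.649 with each library left out. The difference in the share with a Kit UMI turned to -1.65 without top Scrublet scores, -2.12 without shared barcodes and -0.134 thinned to 1000 UMIs, was 6.89 with at least 3 rule genes, 7.26 with at least 4 UMIs of the rule genes and 4.06 not thinned, and ran from -3.44 to 4.81 with each library left out. The causes were not tested. With 2 libraries a group and 95 cells with 3 or 4 rule genes, small differences may be missed.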

Other observations

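The excluding genes removed 211 cells that otherwise met the rule, 114 with a Pf4, 106 with a Car1 and 15 with a Cd79a UMI, some with more than 1. Their median depth was 19306 UMIs. Summed, they held 416 CPM of Mcpt8, 435 CPM of Prss34, 115 CPM of Fcer1a, 276 CPM of Cpa3, 11.1 CPM of Cd200r3 and 9796 CPM of Elane, and so cells with basophil genes were also left out.

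Outside the members, 5 cells carried at least 5 UMIs of Prss34, 3 at least 5 of Cd200r3, 13 at least 5 of Gzmb and 18 at least 5 of Prg2. Among members the same limits were met by 43, 20, 9 and 10 cells.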
